A study of Mus musculus with 2 samples.

Results

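Natural intraepithelial lymphocytes (nIELs) are T cells that lie between the epithelial cells of the gut, and the cells described here are those the authors named nIELs in their sheet of all assigned cells. Of 190 barcodes with that name, 3 also stood in the authors' epithelial sheet and were left out. This left 187 nIELs, of 516 assigned cells and 1117 barcodes in the count matrix. They are compared with 175 induced intraepithelial lymphocytes (iIELs), with 11 more iIELs left out for the same reason. They are also compared with 315 other assigned cells, which are these 175 iIELs, 93 epithelial Pigr+ cells and 47 B cells.

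The study used Drop-seq, in which each cell is caught in a droplet with a barcoded bead and each captured transcript carries a unique molecular identifier (UMI), on colon crypt cells of Tcf4 GfpCre/+ RosamTmG/+ mice on C57BL/6, aged 4 to 10 months. All mice had 1 working copy of Tcf4 (heterozygous), because the inserted Cre disrupts the allele that carries it. The reporter turns a cell and its progeny from red to green once Cre has acted, and FACS collected red cells in which the Tcf4 promoter had never been active (Lin-) and cells both red and green (MIX). Crypts were freed by dissolving the basement membrane, human cells were added to the Lin- and to the MIX cells separately, and the labels name 2 pools (samples 1 to 3 and 4 to 6). The supplement calls all clustered cells, nIELs included, Tcf4 Lin-, while the deposit's labels name Lin- and MIX cells. The barcodes end in X1 or X2, and which pool each stands for is not given, so all cells count as 1 sample without replicates. No test was possible, and every difference below is a description of these cells.

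In background terms, natural IELs take up residence in the epithelium after leaving the thymus, and include cells with a gamma-delta T cell receptor and cells with an alpha-beta receptor and the CD8 alpha homodimer. Induced IELs derive from conventional T cells that met antigen in lymphoid tissue, and many carry CD8 alpha-beta. Natural IELs are known for receptors shared with natural killer (NK) cells and for adapters that pass on their signals.

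The 187 nIELs held 240024 UMIs, with a median of 1148 per cell and a range of 506 to 5262. The iIELs held 185158 UMIs with a median of 950, so nIELs were the deeper class. The median number of genes per cell was 684 in nIELs and 586 in iIELs, and mitochondrial genes took 2.13% and 2.98% of UMIs. Epithelial cells had a median of 1645 UMIs and B cells 1503. For many genes below, the share of epithelial cells with a UMI is given as a reference for stray RNA, which cannot be told apart from RNA of their own. Levels are UMIs summed over a class per 1000000 (CPM), with exact Poisson 95% intervals, ratios have exact binomial 95% intervals and shares of cells exact Clopper-Pearson 95% intervals. All of these cover counting error only. A class with 0 UMIs is set at 3 counts over the class, which is 12.5 CPM in nIELs and 16.2 CPM in iIELs. Barcode set X1 held 170 of the nIELs and X2 held 17, with median depths of 1155.5 and 1067 UMIs, and no barcode was shared by both sets.

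The clusters were made from these same genes, so a gene that is high in nIELs is a description of the cluster. The 7 genes that mark the class are Cd7, Fcer1g, Klrd1, Klrb1a, Klra5, Klra6 and Tnfsf8. Their promoters are shown because all 7 are higher in nIELs than in iIELs. RefSeq promoters of 300 bases (GRCm38.p6, 250 before to 50 after the start) were found for 5 of the 7, with no entry for Cd7 or Klrd1, and 4 of them are printed, all on the minus strand. These are Fcer1g at chr1:171234300-171234599, Klrb1a at chr6:128622885-128623184, Klra5 at chr6:129913175-129913474 and Klra6 at chr6:130026905-130027204. Capitals mark the RUNX core TGTGGT in Fcer1g and Klrb1a, and the longest run of bases that Klra5 and Klra6 share.
Fcer1g: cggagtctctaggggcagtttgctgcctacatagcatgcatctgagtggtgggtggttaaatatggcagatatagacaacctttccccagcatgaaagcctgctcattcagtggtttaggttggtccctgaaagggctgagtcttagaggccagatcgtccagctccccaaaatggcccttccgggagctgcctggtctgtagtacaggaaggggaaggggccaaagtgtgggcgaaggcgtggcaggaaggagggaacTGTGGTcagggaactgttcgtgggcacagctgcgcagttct
Klrb1a: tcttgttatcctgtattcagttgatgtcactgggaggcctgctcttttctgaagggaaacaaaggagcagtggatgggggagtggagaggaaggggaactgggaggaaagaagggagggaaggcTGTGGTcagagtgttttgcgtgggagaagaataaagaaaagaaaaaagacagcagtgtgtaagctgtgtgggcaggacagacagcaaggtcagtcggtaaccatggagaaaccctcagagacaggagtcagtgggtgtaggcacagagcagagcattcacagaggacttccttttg
Klra5: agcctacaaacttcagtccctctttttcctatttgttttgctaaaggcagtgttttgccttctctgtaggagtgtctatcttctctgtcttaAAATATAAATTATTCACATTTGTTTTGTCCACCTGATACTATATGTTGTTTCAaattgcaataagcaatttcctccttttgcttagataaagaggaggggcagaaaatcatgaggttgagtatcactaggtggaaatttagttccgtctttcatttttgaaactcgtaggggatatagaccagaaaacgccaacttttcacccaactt
Klra6: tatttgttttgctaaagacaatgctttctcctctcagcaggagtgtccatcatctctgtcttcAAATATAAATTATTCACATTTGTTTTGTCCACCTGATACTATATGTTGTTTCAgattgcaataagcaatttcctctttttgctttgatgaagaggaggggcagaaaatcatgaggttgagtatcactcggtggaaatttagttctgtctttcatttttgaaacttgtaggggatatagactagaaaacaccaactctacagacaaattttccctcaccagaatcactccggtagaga

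The shared run of Klra5 and Klra6 was 53 bases long and began 158 bases before the Klra5 start and 187 before that of Klra6. Matches to 3 short motifs were counted on both strands. The RUNX core TGTGGT, which reads ACCACA on the other strand, had 1 match in Fcer1g and 1 in Klrb1a, none in the other 3, and stood in 16.8% of 32851 promoters of this length. An ETS core, GGAAGT, read as ACTTCC on the other strand, had 1 match, in Klrb1a, and was in 23.8% of all promoters, and the T-box motif TCACAC, in reverse GTGTGA, had no match and was in 14.5%. These counts say which letters are in these windows and no more. In position, Klrb1a, Klrd1, Klra5 and Klra6 lie in the NK gene complex of chromosome 6. The 21 Klr genes listed there, 20 of them in the matrix, span 1778 kb (chr6:128609227-130386874, GRCm38). Fcer1g is on chromosome 1, Tnfsf8 on chromosome 4 and Cd7 on chromosome 11, where it overlaps Gm11775 on the opposite strand. Gm11775 has counts of its own, but strand use in the counting is not stated, so some UMIs of either may belong to the other. The same holds for Xcl1 and Gm20743, Cd160 and Pdzk1, and Trdc and Trdv5.

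Of 3321 genes with at least 20 UMIs in nIELs and iIELs together, 190 (5.72%) were at least 2-fold higher in nIELs and 206 (6.20%) at least 2-fold lower. The median ratio of all these genes was 1.00. With cells also in the epithelial sheet kept, 292 (6.97%) were higher and 553 (13.2%) lower, of 4189 genes. Shares of all genes given below are those without these cells. Calls were more frequent among sparse genes. Of 1936 genes with 20 to 49 UMIs, 328 (16.9%) were past 2-fold, against 11 of 310 genes (3.55%) with 200 or more. Against the other assigned cells, 509 of 5596 genes (9.10%) were at least 2-fold higher in nIELs and 1056 (18.9%) at least 2-fold lower. By that count 32.5% of the calls were higher in nIELs, and 14.0% with median-of-ratios scaling.

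**Figure D1:**
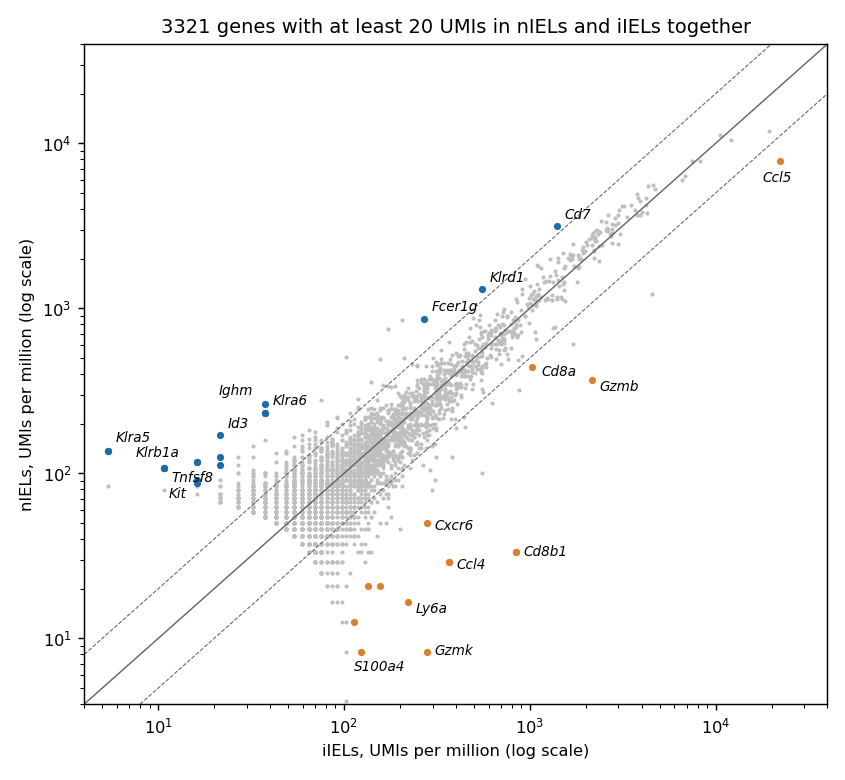
CPM in nIELs (vertical) and iIELs (horizontal), both on log scales, 1 point per gene for 3321 genes. The solid line is a ratio of 1, dashed lines are 2-fold, blue points are label markers and the 10 genes with the largest ratio, orange points the 10 with the smallest, Ccl5 and Cd8a, and classes at 0 UMIs (Klrb1a and Kit in iIELs) are drawn at 3 counts.

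Cd7, an immunoglobulin-family receptor of T and NK cells, was the most abundant label marker by UMIs. It reached 3154 CPM in nIELs (2933 to 3387) and 1409.6 in iIELs (1244 to 1591), a ratio of 2.24 (1.94 to 2.59). It was found in 88.8% of nIELs, 52.6% of iIELs and none of the epithelial cells. Its level was 3269 CPM in X1 and 1893 in X2. Cd7 was thus detected in most nIELs and in about every other iIEL, so its presence alone does not separate the classes.

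Fcer1g encodes an adapter chain with an activation motif. Its level was 867 CPM in nIELs (753 to 993) and 270.0 in iIELs, a ratio of 3.21 (2.35 to 4.46), and it was found in 54.0% of nIELs, 14.9% of iIELs and no epithelial cell. Klrd1 encodes CD94, the partner of the NKG2 receptors. Its level was 1312 CPM (1171 to 1466) against 556, a ratio of 2.36 (1.88 to 2.98), detected in 68.4% of nIELs, 30.3% of iIELs and 3.23% of epithelial cells. Both genes were far more frequent in nIELs than in epithelial cells.

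The other 4 label markers were sparse. Klrb1a, an NKR-P1 receptor, had 28 UMIs in 22 nIELs and 0 in iIELs. With iIELs set at 3 counts its ratio was 7.20, a bound that leaves out counting error of the 28 UMIs. Klra5 and Klra6 are Ly49 receptors. Klra5 had 33 UMIs in 14 nIELs and 1 in iIELs, a ratio of 25.5 (4.26 to 1036), and Klra6 56 UMIs in 31 nIELs and 7 in 2 iIELs, a ratio of 6.17 (2.81 to 16.1). Tnfsf8, the CD30 ligand, had 26 UMIs in 16 nIELs and 2 in iIELs, a ratio of 10.0 (2.51 to 87.2). The wide intervals come with these small counts. In X2 nIELs, Klrb1a reached 149 CPM, Klra5 199, Klra6 99.6 and Tnfsf8 149, from at most a handful of UMIs each. All 4 had 0 UMIs in epithelial cells.

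**Figure D2:**
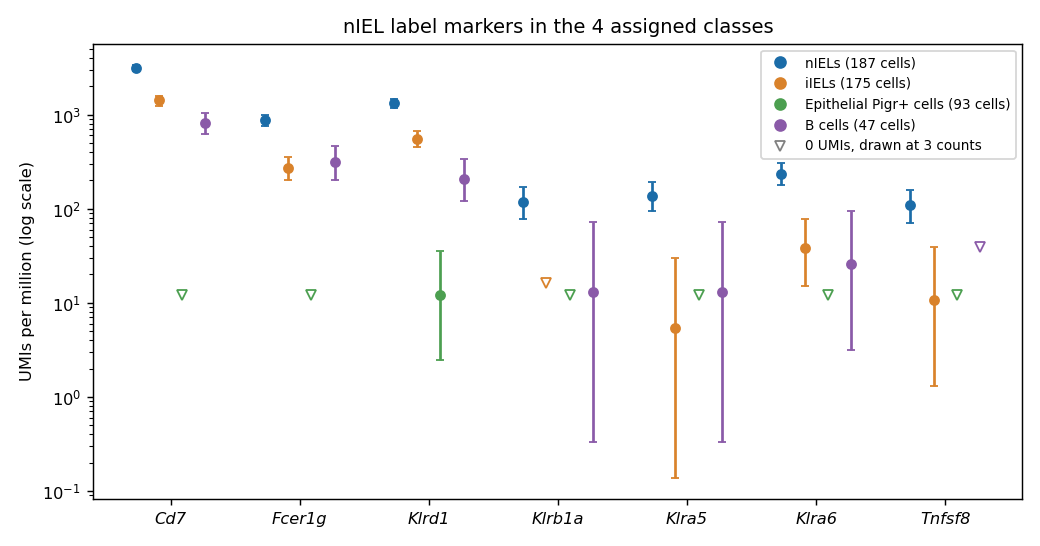
CPM (log scale) of the 7 label markers in nIELs, iIELs, epithelial Pigr+ cells and B cells, with exact Poisson 95% intervals. Open triangles are classes with 0 UMIs, drawn at 3 counts. For each gene the nIEL level is the highest of the 4 classes, and Cd7 is at 3154, 1409.6 and 808 in nIELs, iIELs and B cells.

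Counted per cell, 94 nIELs had UMIs of at least 3 of the 7 label markers, 54 of 2, 34 of 1 and 5 of none. Among iIELs the same counts were 14, 27, 78 and 56. Nearly every nIEL therefore held a label marker, and 119 iIELs did too. The 3 barcodes left out, which carried the nIEL name in 1 sheet and an epithelial name in the other, held no label marker and no CD3 UMI, and each held UMIs of 5 or 6 epithelial markers. The B cell class held lymphocyte genes as well. Cd7 was found in 19 and a CD3 gene in 11 of the 47 B cells, so a share in B cells is a weaker reference for stray RNA than one in epithelial cells.

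T cell identity was read from receptor chains. The chains of the gamma-delta receptor are joined from separate genes, with Trdc the delta constant gene and Tcrg-C1, Tcrg-C2 and Tcrg-C4 gamma constant genes. Of 5 such genes measured, 3 were at least 2-fold higher in nIELs and none lower, with a median ratio of 2.37, beside 5.72% higher and a median of 1.00 for all genes. Trdc was at 358 CPM in nIELs (287 to 442) and 140.4 in iIELs, a ratio of 2.55 (1.63 to 4.12). It was found in 18.2% of nIELs, 6.29% of iIELs and no epithelial cell. Tcrg-C4 had the largest ratio, 3.14 (2.08 to 4.89), with 492 CPM in nIELs. Within X2 alone that ratio was 0.915. Tcrg-C1 had a ratio of 2.37 (1.64 to 3.50) and Tcrg-C2 one of 1.58 (1.24 to 2.03), and these 2 are uncertain, since 31.7% and 33.3% of the 50-base windows in their last 500 bases also occur in another gene.

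The alpha-beta chain genes differed less. Of Trac, Trbc1 and Trbc2, none was past 2-fold, beside 5.72% higher and 6.20% lower among all genes, and the median ratio was 1.20. Trac, the alpha constant gene, was at 846 CPM in nIELs and 869.5 in iIELs, a ratio of 0.973 (0.787 to 1.20). Trbc2, a beta constant gene, was at 1567 and 1291 CPM, a ratio of 1.21 (1.03 to 1.43), and shares 20.2% of its end windows with Trbc1. Alpha-beta chain RNA was thus within 2-fold between the classes, while 3 of the 5 gamma and delta genes were past it.

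Chain genes of both kinds were found in the same nIELs. UMIs of gamma or delta genes and of alpha or beta genes were both present in 142 nIELs (75.9%, 69.2 to 81.9), against 80 iIELs (45.7%, 38.2 to 53.4). Only gamma or delta genes were found in 14 nIELs, only alpha or beta genes in 26, and neither in 5. Gamma constant transcripts are known to be made also in T cells with an alpha-beta receptor, so a gamma UMI does not give the receptor of a cell. Trdc and Trac together were found in 15 nIELs, Trdc without Trac in 19, Trac without Trdc in 87, and neither in 66. A gamma gene without Trdc was present in 121 nIELs. These RNA counts therefore do not sort the nIELs into gamma-delta and alpha-beta cells.

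Depth changed these counts. Both kinds of chain were found in 36 of the 63 shallowest nIELs, in 52 of the next 62 and in 54 of the 62 deepest. With each cell thinned to 700 UMIs in 1 random draw, which left out 32 nIELs and 33 iIELs, both kinds were found in 98 of 155 nIELs (63.2%) and 53 of 142 iIELs (37.3%). At equal depth the share thus stayed higher in nIELs. Of 93 epithelial cells, 1 held chain UMIs of both kinds.

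**Figure D3:**
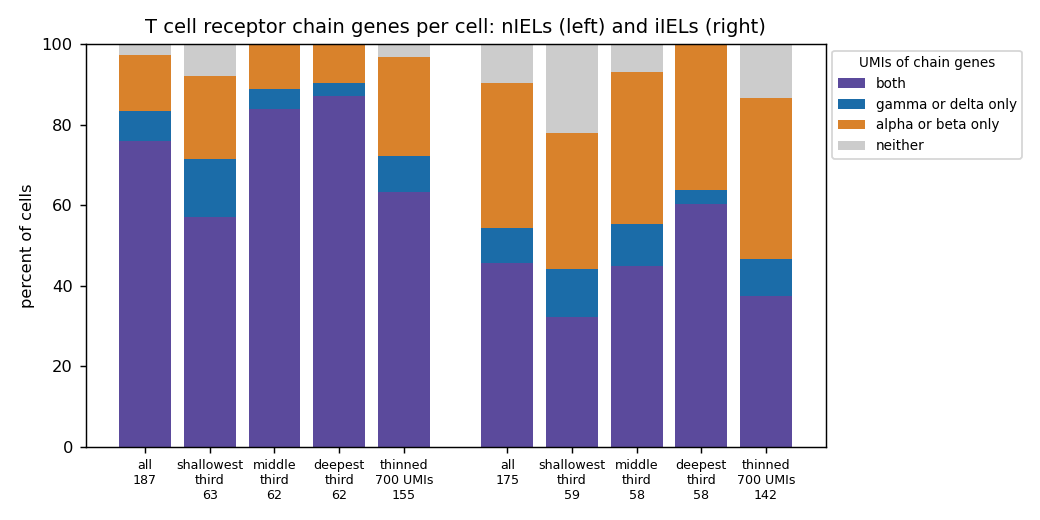
Percent of cells with UMIs of both gamma or delta and alpha or beta chain genes, of 1 kind only, or of neither, in nIELs (left bars) and iIELs (right bars), for all cells, by depth and after thinning to 700 UMIs, with the number of cells under each bar. The share with both is 75.9% in all nIELs and 45.7% in all iIELs.

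The CD3 chains and the kinases next to them carry the signal of either receptor. A UMI of a CD3 gene was found in 169 nIELs (90.4%), 160 iIELs (91.4%) and 2 epithelial cells. Of 14 measured genes of this group, 1 was at least 2-fold higher and 2 lower in nIELs, with a median ratio of 0.993, beside 5.72% and 6.20% of all genes. Cd3g was at 1408 CPM in nIELs, with a ratio of 0.928 (0.790 to 1.09). Among those past 2-fold were Txk, a Tec-family kinase, with a ratio of 2.31 (1.10 to 5.31), and Lat, the scaffold that ZAP-70 phosphorylates, with 0.428 (0.292 to 0.620). Most of this list, 11 of 14 genes, lay within 2-fold.

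Both measured coreceptors were at least 2-fold lower in nIELs, beside 6.20% of all genes. Cd8a and Cd8b1 are among the iIEL markers the authors show. Cd8b1, the beta chain of CD8, had 8 UMIs in 7 nIELs and 157 in 85 iIELs, a ratio of 0.0393 (0.0167 to 0.0794), and 19.1% of its end windows also occur in another gene. Cd8a, the alpha chain, was at 442 CPM in nIELs and 1032 in iIELs, a ratio of 0.428 (0.334 to 0.546). Of the 59 nIELs with Cd8a, 53 had no Cd8b1 UMI, against 42 of 101 iIELs. Cd4 had no UMI in nIELs, which allows up to 12.5 CPM. Among nIELs, Cd8a was therefore found mostly without its beta partner, and most nIELs had no Cd8a UMI.

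Fcer1g, Tyrobp, Hcst and Cd247 encode the adapters that NK receptors and CD3 use to signal. Of these 4, Fcer1g and Tyrobp were at least 2-fold higher in nIELs and none was lower, with a median ratio of 2.17, beside 5.72% higher and 6.20% lower among all genes. Fcer1g is a label marker, and the authors also show Tyrobp as a marker of the class, so neither is independent of the name. Without Fcer1g the median, that of Cd247, was within 2-fold. Tyrobp (DAP12) was at 754 CPM in nIELs (648 to 872) and 173 in iIELs, a ratio of 4.36 (2.98 to 6.57), detected in 37.4% of nIELs, 8.57% of iIELs and no epithelial cell. Hcst (DAP10), the partner of NKG2D, had a ratio of 0.791 (0.631 to 0.991). The difference lay in the 2 adapters with an activation motif that myeloid and NK cells share, and not in Hcst or Cd247.

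Among NK receptors, 15 of 28 listed genes in the matrix reached 20 UMIs in both classes together. Of these 8 were at least 2-fold higher in nIELs and 1 lower, with a median ratio of 2.09, beside 5.72% higher, 6.20% lower and a median of 1.00 for all genes. The 8 include 4 label markers, and of the 11 other genes 4 were higher and 1 lower, with a median of 1.76. Besides the label markers, Klrk1 (NKG2D) was at 171 CPM in nIELs with a ratio of 2.88 (1.45 to 6.20), and Klra7 at 279 with 3.69 (2.05 to 7.11). Klra7 is uncertain, as 27.5% of its end windows are shared with a pseudogene, and Klra3, Klra9 and Klrc1 share 42.4%, 44.8% and 56.3% of theirs with other genes. The lower gene was Cd226, the activating receptor DNAM-1, with a ratio of 0.491 (0.312 to 0.764). Cd160, which binds HVEM, was found in 51.3% of nIELs, with a ratio of 1.76 (1.37 to 2.28). A UMI of any listed NK receptor gene was found in 4.30% of epithelial cells. In all, 12 of the 15 had a ratio above 1, and Cd226, Klrc1 and Slamf7 did not.

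The number of receptor genes per nIEL varied. Counted here were 21 Klr genes in the matrix, the 20 of the NK gene complex and Klrg1. Of these, 58 nIELs had UMIs of at least 3, 37 of 2, 60 of 1 and 32 of none, and the most in a cell was 11. The median depth was 1365.5 UMIs in the 58 and 1015.5 in the 32. In the shallower iIELs the counts were 13, 21, 42 and 99. Of the 8 Ly49 (Klra) genes alone, 117 nIELs had none, 44 had 1, 14 had 2 and 12 had 3 or more, and median depths were 1131 UMIs with none and 1534 with 3 or more. The part of depth in these counts was not tested. Most nIELs thus showed no Ly49 RNA at this depth, and a few showed several. Klra5 rested on few cells, with 66.7% of its UMIs in 5 nIELs.

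Of 11 measured genes of the cytotoxic granule, 1 was at least 2-fold higher in nIELs and 5 lower, with a median ratio of 0.763, beside 5.72% higher and 6.20% lower among all genes. Gzmb and Gzma are among the iIEL markers the authors show. Gzmb, a granule protease, was at 367 CPM in nIELs and 2155 in iIELs, a ratio of 0.170 (0.133 to 0.215). Gzma had 294 UMIs in 23 nIELs and 837 in 95 iIELs, and 45.9% of the nIEL UMIs lay in 5 cells. Gzmk had 2 UMIs in nIELs and 52 in iIELs, a ratio of 0.0297 (0.00350 to 0.113). The higher gene, Gzmc, had 17 UMIs in 4 nIELs, with a ratio of 2.62 (0.929 to 9.09). The proteoglycan gene Srgn and Nkg7 were within 2-fold, with ratios of 0.842 (0.715 to 0.993) and 0.763 (0.643 to 0.905). RNA of Gzma, Gzmb and Gzmk was therefore lower in nIELs and held by few of them.

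Of 7 measured chemokines and cytokines, 2 were at least 2-fold higher and 3 lower, with a median ratio of 0.661, against 5.72% higher and 6.20% lower of all genes. The higher ones were the label marker Tnfsf8 and Xcl1, and without Tnfsf8 1 of 6 was higher and 3 lower, with a median of 0.507. Xcl1, the chemokine that draws cross-presenting dendritic cells, was at 846 CPM in nIELs (733 to 970.4) and 205 in iIELs, a ratio of 4.12 (2.90 to 5.99). It was found in 44.9% of nIELs, while a UMI of any listed chemokine or cytokine gene was found in 10.8% of epithelial cells. Ccl5, a chemokine of effector T cells, was at 7841 and 22235 CPM, a ratio of 0.353 (0.334 to 0.372), and it was detected in 79.1% of nIELs, 94.9% of iIELs and 9.68% of epithelial cells. Stray RNA and own expression of Ccl5 in epithelial cells cannot be told apart here. Ccl4, another chemokine, had 7 UMIs in nIELs and 68 in iIELs. The nIELs thus had more Xcl1 and less Ccl5 and Ccl4.

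Of 6 measured cytokine receptor genes, none was at least 2-fold higher and 1 lower, with a median ratio of 1.07, where 5.72% of all genes were higher and 6.20% lower. That gene was Il7r, with a ratio of 0.434 (0.229 to 0.797), and Il2rg, the shared gamma chain, was at 649.9 CPM in nIELs with 1.22 (0.939 to 1.58). Of 17 homing and retention genes, none was at least 2-fold higher and 3 were lower, with a median ratio of 0.771 and 3 of the 17 above 1, beside the same shares of all genes. Cxcr6, the receptor of CXCL16, had the smallest ratio, 0.178 (0.0865 to 0.338). Itgae, the CD103 chain that binds E-cadherin on epithelial cells, was found in 20.3% of nIELs with a ratio of 0.872 (0.575 to 1.33). Itgae was thus within counting error of a ratio of 1.

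Of 14 measured lineage transcription factors, 3 were at least 2-fold higher and 3 lower in nIELs, with a median ratio of 0.848, against 5.72% and 6.20% of all genes. Ikzf2 (Helios) was at 508 CPM in nIELs (422 to 607) and 103 in iIELs, a ratio of 4.95 (3.04 to 8.51), and was found in 40.1% of nIELs, 8.57% of iIELs and 2.15% of epithelial cells. Id3 and Id2 encode inhibitors of E proteins. Id3 had a ratio of 7.91 (2.86 to 30.4) and Id2 one of 0.367 (0.276 to 0.484), at 321 CPM in nIELs, so the 2 inhibitors went in opposite directions. Id3 was found in 13.4% of nIELs and 12.9% of epithelial cells, so its share in nIELs is not above the epithelial level by more than counting error, although its share in iIELs was 2.29%. The other higher gene was Lef1, with a ratio of 2.64 (1.11 to 7.27).

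Costimulatory and inhibitory receptors gave 2 higher and 3 lower genes of 11, with a median ratio of 0.821, where 5.72% of all genes were higher and 6.20% lower, and 16.9% of those with 20 to 49 UMIs were past 2-fold. Tnfrsf18 (GITR) was higher, with 24 UMIs in nIELs and a ratio of 3.09 (1.23 to 9.23), and so was Cd27, with 2.02 (1.04 to 4.17). Cd6 and Cd5, scavenger-type receptors that dampen receptor signals, were lower, with 3 against 21 and 7 against 24 UMIs. In several other lists no gene moved past 2-fold. These were 8 GIMAP genes, lymphocyte GTPases (median ratio 1.12), 12 genes of MHC class I and its peptide loading (0.889), 9 immediate early and activation genes (1.09), 5 cell cycle genes (0.672) and 13 thymosins and actin regulators (0.949). Of 8 stress genes, Dnajb1, a heat shock cochaperone, was the only one past 2-fold, with a ratio of 2.83 (1.47 to 5.88). Mki67, a proliferation marker, had no UMI in nIELs, which allows up to 12.5 CPM.

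**Figure D4:**
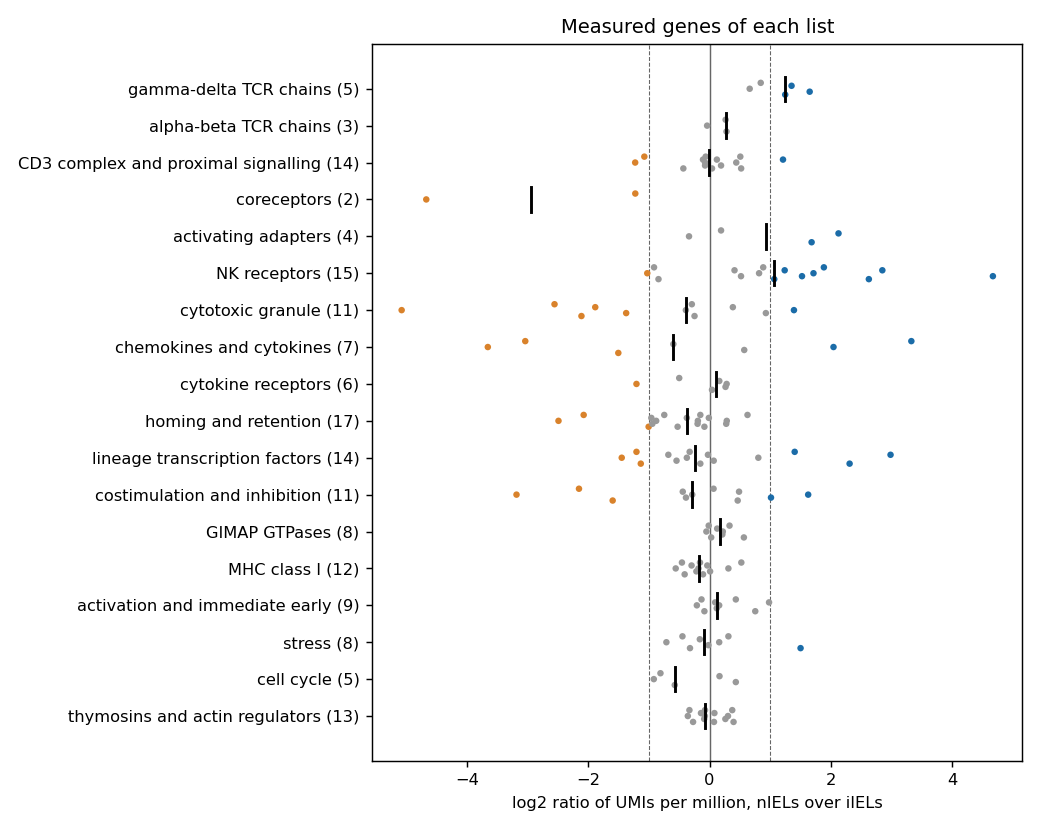
Log2 ratio of CPM, nIELs over iIELs, for the measured genes of 18 lists, 1 point per gene, with the number of genes in brackets. Black bars are list medians, dashed lines are 2-fold in either direction, and blue and orange points lie past them. Gamma-delta chains, adapters and NK receptors have the highest medians, with ratios of 2.37, 2.17 and 2.09, and the last 2 lists hold label markers, without which both medians are lower and within 2-fold (1.76 for NK receptors).

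Ranked by ratio to iIELs, where the higher class held 20 or more UMIs and X1 and X2 had the same direction, the 10 largest were Klra5, Tnfsf8, Id3, Klrb1a, Ighm, Klra6, Ash1l, Kit, Swap70 and Bdp1. A class with 0 UMIs counted as the lower one. In X2 this applied, among others, to Klra5, Id3 and Ash1l, with 4 UMIs against 0, whose bounds alone give no direction. Klrb1a and Kit had 0 UMIs in all iIELs and few in X2 nIELs, so X2 gives them no direction either. Kit, the stem cell factor receptor, had 22 UMIs in 19 nIELs and 0 in iIELs, so it was at least 5.66-fold higher. Its share was 10.2% in nIELs and 7.53% in epithelial cells. Ash1l, a histone methyltransferase, and Bdp1, a part of TFIIIB, had ratios of 5.79 (2.04 to 22.6) and 5.21 (1.81 to 20.5). Each was found in a larger share of the deeper epithelial cells (28.0% and 17.2%) than of nIELs (8.56% and 9.63%). The 10 with the smallest ratio were Gzmk, Cd8b1, S100a4, Ly6a, Ccl4, Cd6, Lilr4b, Gadd45b, Gzmb and Cxcr6. The calcium-binding S100a4 had 2 UMIs in nIELs and 23 in iIELs, and Ly6a (Sca-1) 4 and 41.

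Against all other assigned cells, the 10 largest ratios were those of Klrb1a, Klra5, Tnfsf8, Capn3, Klra6, Ikzf2, Klra7, Klrk1, Tcrg-C4 and Xcl1. Ikzf2 had a ratio of 10.8 (6.93 to 17.5), Tcrg-C4 one of 7.60 (5.13 to 11.5) and Xcl1 one of 7.57 (5.62 to 10.3). Without ribosomal protein and mitochondrial genes, predicted genes named Gm and genes named as pseudogenes, the genes with most UMIs in nIELs were Tmsb4x (11169.7 CPM), Malat1 (10412), Ccl5, Actb, B2m, Pabpc1, H2-D1, Cd7, Tmsb10 and Eef1a1. Apart from Ccl5 and Cd7, each of these was within 2-fold between nIELs and iIELs.

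Ighm, the heavy chain constant gene of IgM, was found in nIELs. It had 63 UMIs in 43 nIELs and 7 in 5 iIELs, a ratio of 6.94 (3.18 to 18.0), with a UMI in 1.08% of epithelial cells and 57.4% of B cells. The shares expected at 700 UMIs, worked out from each cell's counts, were 15.6% of nIELs and 1.56% of iIELs. The share in nIELs was thus above those of iIELs and epithelial cells. Cd74, the invariant chain gene of B cells, had 3 UMIs in nIELs against 63 of Ighm, while B cells had 940 of Cd74 against 78 of Ighm. No nIEL held both, and 1 held both Ighm and Ighd. All 11 B cell markers together were at 404 CPM in nIELs and 30894 in B cells, with Ighm the most abundant in nIELs and 3 at 0, Cd79a among them. Of the 43 nIELs with Ighm, 39 also held Trbc2 (90.7%, 77.9 to 97.4), against 67.4% of the others (59.1 to 74.9). Cd8a went the other way, at 14.0% with Ighm (5.30 to 27.9) and 36.8% without (28.9 to 45.2). Trac was as frequent with Ighm as without (53.5% and 54.9%), as were Trbc1, Tcrg-C1 and Tcrg-C2 within their intervals. The median depths were 1274 and 1132 UMIs. Ighm UMIs were thus found in cells with T cell receptor RNA and without Cd74, more often with Trbc2 and less often with Cd8a. Of the 43 nIELs with Ighm, 7 were from X2, against 10 of the 144 without. The parts of depth and of barcode set in the Trbc2 and Cd8a shares were not tested.

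Markers of epithelial, myeloid, plasma, stromal, mast and erythroid cells were sparse in nIELs. The 14 epithelial markers summed to 100.0 CPM in nIELs and 33029 in epithelial cells, with Epcam the most abundant and 8 at 0. The 10 myeloid markers summed to 29.2 CPM, 5 plasma cell markers to 58.3, 6 stromal to 25.0, 4 mast cell and basophil markers to 33.3 and the 1 erythroid marker to 4.17. The listed genes of innate lymphoid cells of groups 2 and 3 that the matrix holds (3 and 2) had no UMI. The 7 NK and ILC1 markers summed to 458 CPM in nIELs and 205 in iIELs, with Klre1 the most abundant, and Ncr1 was found in 6 nIELs. The 12 T cell markers summed to 7987 CPM in nIELs and 7367 in iIELs. T cell RNA was thus as high as in iIELs, beside the NK receptors.

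Splitting nIELs by single genes shows how the markers were spread among them. These splits were chosen after the values were seen. The 34 nIELs with a Trdc UMI had Tcrg-C1 in 64.7% (46.5 to 80.3), against 28.1% (21.1 to 35.9) of the 153 without. Klra6 was in 1 of the 34 (2.94%, 0.0744 to 15.3) and in 30 of the 153 (19.6%, 13.6 to 26.8), with overlapping intervals. Cd7 and Fcer1g were as frequent with Trdc as without within their intervals. The median depth was 1313 UMIs with Trdc and 1089 without, and its part in these shares was not tested. Trdc thus came with UMIs assigned to Tcrg-C1, a gene that shares part of its end with another gamma gene.

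The 23 nIELs with Gzma, at a median of 1207 UMIs against 1132, differed in more genes. Gzmb was found in 73.9% of them (51.6 to 89.8) and 6.71% of the others (3.40 to 11.7), Tyrobp in 73.9% and 32.3%, and Cd8a in 60.9% and 27.4%. Cd160 went the other way, at 21.7% (7.46 to 43.7) and 55.5% (47.5 to 63.2), as did Xcl1, at 17.4% and 48.8%. Tcf7, a factor of naive and memory-like T cells, was in none of the 23 and in 37 of the 164 others. The few nIELs with Gzma were thus richer in Gzmb, Tyrobp and Cd8a and poorer in Cd160 and Xcl1. Cd8b1 was in none of these 23 and in 7 of the 164 others, with overlapping intervals.

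The 31 nIELs with Klra6 had Ikzf2 in 74.2% (55.4 to 88.1), against 33.3% (26.0 to 41.3) of the others, and Klrb1a in 10 against 12 of 156. Cd8a was in 54.8% of them and 26.9% of the others. Median depths were 1241 and 1132 UMIs. The 22 nIELs with Klrb1a had Klra5 in 7, as did 7 of the 165 others, at median depths of 1450.5 and 1131 UMIs. Klra5 was in 4 of the 31 with Klra6 and 10 of the 156 without, and Tnfsf8 in 6 and 10, and for both the intervals overlapped. Klrb1a thus came more often with Klra6 and with Klra5, and the part of depth in this was not tested. All 14 nIELs with Klra5 also held Trac.

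**Figure D5:**
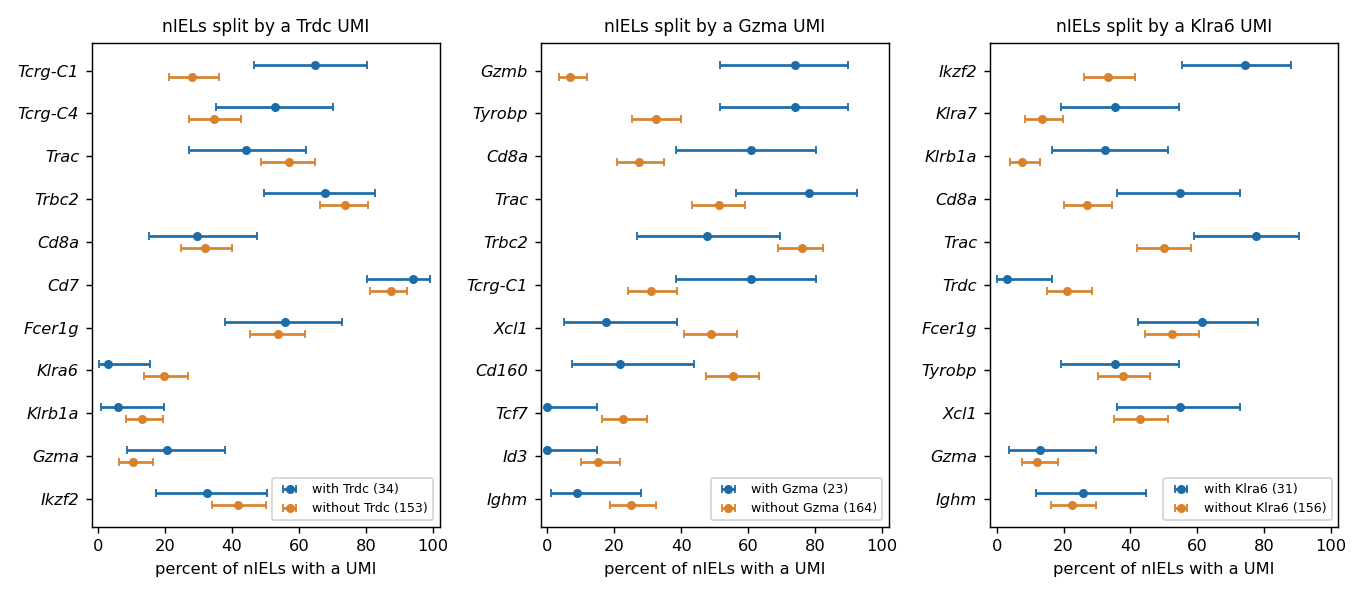
Percent of nIELs with a UMI of each gene, split by a UMI of Trdc, Gzma or Klra6, with exact 95% intervals and the number of cells in brackets. The intervals lie apart for Tcrg-C1 in the split by Trdc, for Gzmb, Tyrobp, Cd8a, Xcl1, Cd160 and Tcf7 in the split by Gzma, and for Ikzf2, Klrb1a, Cd8a and Trac in the split by Klra6.

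Cell barcodes bear on the count of nIELs. Of the 187, 5 had another barcode of the same set that differed at 1 base, which was a nIEL for 2 of them, an iIEL for 1 and unassigned for 3, a cell with neighbours of more than 1 kind being counted under each. No doublet caller was run. UMIs of at least 2 B cell markers were present in 7 nIELs, and of at least 2 epithelial markers in none.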

How the data were processed

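The authors counted UMIs with the Drop-seq pipeline (the labels name STAR 2.5.0 and Picard 1.137), and the deposited counts are whole numbers for 19294 genes and 1117 barcodes. Annotation, UMI joining and filters before deposit are not given. Cells were joined to the authors' classes by barcode. UMIs were summed per class and scaled to UMIs per 1000000 (CPM), and genes needed at least 20 UMIs in the 2 sides together. Calls are ratios of at least 2-fold. Alternatives were other scalings, minimums of 10 and 50 UMIs, each barcode set alone, cells also in the epithelial sheet kept, neighbouring barcodes joined, cells with at least 2 B cell or epithelial markers left out as doublets might be, thinning to 700 UMIs, and leaving out the cell with most UMIs of a gene. Named genes were the 7 label markers, examples from each list (the highest level, largest and smallest ratio), the 10 largest and smallest ratios among genes with 20 UMIs on the higher side and the same direction in both barcode sets, and the 10 most abundant, without ribosomal protein and mitochondrial genes, predicted genes named Gm and genes named as pseudogenes. There a class with 0 UMIs counted as the lower one. Other genes named, and all splits of nIELs, were chosen after their values were seen. The members and lists were chosen with earlier results of these data known. Ratios were tested on simulated data. The intervals and 2-fold calls were tested with the depth of each class taken as known. Simulated counts were Poisson draws per class, the form these intervals assume. They held no cells, so UMIs spread unevenly among cells were not tested. Scaled by their own totals, as the real counts are, simulated unchanged genes came out slightly above a ratio of 1, because changed genes alter the totals. Python 3.11.15, numpy 2.4.6, scipy 1.17.1, pandas 2.3.3 and matplotlib 3.10.9 were used.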

Additional observations from a re-analysis of the deposited data

Results flagged for a closer look

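Label markers of nIELs were also found among the 601 barcodes that the authors assigned to no class, which had a median of 212 UMIs and 36.8% of UMIs from mitochondrial genes. They stand here because they lie outside the comparisons and above the 17.5 CPM that 3 counts would give. Cd7 was at 565 CPM (97 UMIs, in 67 barcodes), Klrd1 at 233, Fcer1g at 99.0, Tnfsf8 at 29.1 and Klra5 at 23.3. For Tnfsf8 and Klra5 this rested on 5 and 4 UMIs. Klrb1a and Klra6, with 3 UMIs each, were not above that level. Of the 601 barcodes, 39 had at least the 506 UMIs of the shallowest nIEL. Whether these barcodes hold nIELs or stray RNA was not tested.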

How the results depend on the processing

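Counts of genes past 2-fold moved with the gene minimum, and so did the share called. Against iIELs, 190 higher (5.72%) and 206 lower genes (6.20%) became 573 (10.1%) and 516 (9.08%) at 10 UMIs, and 34 and 34 (2.45% each) at 50. Against the other assigned cells, 509 and 1056 became 886 and 1824, and 189 and 391. X2 alone, with fewer cells and genes, gave fewer calls (21, 18, 152 and 246, in the same order) but larger shares (9.13%, 7.83%, 19.2% and 31.1%, the first 2 of 230 genes and the last 2 of 791). Thinning gave 99, 100, 178 and 298 calls, from fewer UMIs and genes. The shares were 5.66% and 5.72% of 1749 genes against iIELs, and 7.16% and 12.0% of 2486 against the others. Of the 21 genes higher than in iIELs in X2, 2 were among the 190. With cells of the epithelial sheet kept, 292 genes were higher and 553 lower than in iIELs, which shared 127 and 106 with the main calls and made 34.6% of calls higher in place of 48.0%. This added 14 cells. The 11 iIELs among them held 98969 UMIs, with up to 23205 in a cell, beside 185158 in the 175 iIELs of the main comparison. The cause of the change in calls was not tested. Median-of-ratios scaling gave 234 genes (4.18%) higher than in the other assigned cells. The median log2 ratio of all genes there became -0.32 in place of 0.01, and 14.0% of calls were higher in place of 32.5%. The cause was not tested.

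For the 82 named genes, 88 of 788 alternative ratios to iIELs and 148 of 800 to the other assigned cells lay outside the first interval, apart from reversals. Both totals hold 82 ratios from joining neighbouring barcodes. That step changed no count of calls, so it was no test of the ratios. Of the 88, 42 came in X2 alone (of 53) and 36 with cells of the epithelial sheet kept (of 82), so ratios to iIELs depend on leaving those cells out. Of the 148, 45 came in X2, 35 after thinning, 29 with the mean over cells and 23 with median-of-ratios scaling. Of the genes past 2-fold, 1 in each comparison came to lie on the other side of 1, both in X2 alone. Tcrg-C4 had a ratio to iIELs of 0.915 and Dnajb1 one of 0.715 to the others, and the cause was not tested. These counts leave out bounds that reach past 1 and so give no direction. That treatment was chosen after the values were seen, and it matters. Without it 5 more results would count as reversed, all in X2 with 0 UMIs on 1 side: bounds of 0.732 for Klra5, Id3 and Ash1l against iIELs, and of 2.95 for Gzmk and 2.36 for Gadd45b against the others. X2 gave no value for 29 ratios to iIELs and 20 to the others, and thinning, leaving out marker-mixed cells and leaving out the cell with most UMIs gave none for 1 each. Shares of nIELs with a UMI were outside the first interval in 21 of 120 values, 14 of them after thinning. Depth limits what sparse genes can show, and X2, with 17 nIELs and 13 iIELs, cannot serve as a replicate.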

Other observations

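The 11 iIELs also listed in the epithelial sheet held between 946 and 23205 UMIs, and they were left out of the comparisons with nIELs except in the alternative that keeps them.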
